A study of Mus musculus with 5 samples.

Results

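The 10 genes described here encode the 4 mouse Notch receptors (Notch1 to Notch4), 4 of their ligands (Jag1, Jag2, Dll1 and Dll4) and a pair of their transcriptional targets (Hes1 and Hey1). They were chosen by name, and all 10 were found among the 23857 genes of the table and passed the filter on low values. RNA was sequenced from YFP-positive stromal cells that had been sorted out of oviducts, or fallopian tubes, from young adult females, 1 mouse per library. All mice carried Pdgfra-Cre, a recombinase under the promoter of a gene of mesenchymal cells, and R26Y, a Rosa26 reporter that turns on YFP where the recombinase has acted. The 2 controls, mice 2 and 3, were Pdgfra-Cre;R26Y with wild-type Esr1. The 3 conditional knockouts, mice 1, 2 and 3, were Pdgfra-Cre;Esr1(fl/fl);R26Y, so that Esr1, the gene of estrogen receptor alpha, should be lost in the recombined cells. The comparison asks how the expression of Notch genes differs when stromal cells have lost this receptor.

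Notch receptors are cell-surface proteins that are activated by ligands on a neighbouring cell. Binding leads to cleavage by ADAM proteases and then by gamma-secretase, and the freed intracellular part enters the nucleus, joins the DNA-binding protein RBPJ and a Mastermind protein, and turns on targets such as the Hes and Hey repressors. Dll4, Notch1 and Notch4 are well known in endothelium, Notch3 in the muscle and pericytes of vessel walls, and Notch signalling in several epithelia biases cells away from the ciliated fate.

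Values are TPM, transcript abundances scaled for length and to a total of 1000000 per library. Where values of single libraries are given, the controls stand in the order mouse 2, mouse 3 and the knockouts in the order mouse 1, mouse 2, mouse 3. Esr1 was examined first because it checks the labels. It measured 83.3 and 77.6 TPM in the controls against 28.9, 85.0 and 170 TPM in the knockouts. Only knockout mouse 1 lay below the controls, so the label was not borne out by Esr1 level in the libraries labelled knockout from mice 2 and 3. All directions below refer to labels. With 1 TPM value per gene, loss of only a part of the Esr1 transcript could not be seen. The stromal genes Pdgfra (165 to 298 TPM) and Dcn (6764 to 10110 TPM) were high in every library. The 9 stromal markers summed to 23727 and 19175 TPM in the controls against 16283, 12764 and 14739 TPM in the knockouts. Of the 9, 4 lay below both controls in all 3 knockouts, namely Lum, Col1a1, Col1a2 and Col3a1. Over all tested genes 21.9% did so. For the counts of markers in single libraries below, no such share over all genes was computed. The epithelial gene Epcam (70.8 to 218 TPM), the endothelial gene Pecam1 (27.5 to 47.0 TPM) and the leukocyte gene Ptprc (15.6 to 54.6 TPM) were also present in all 5 libraries, and no gene of the marker lists was at 0 in any. Knockout mouse 1 stood apart from the other knockout mice in several results, which are therefore also given without it. It was also the only knockout library with Esr1 below the controls, and without it the Esr1 log2 fold change was 0.57. Results without mouse 1 thus compare the controls with libraries in which Esr1 was not lower. Knockout mouse 3 had the fewest genes at 1 TPM or more, 15841 against 17148 to 19432 in the other libraries. It held the highest Notch2, Jag1, Hes1 and Hey1 and the lowest Notch4 and Dll1 of the 5 libraries. Several results that turn on it are given without it as well.

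None of the 10 Notch genes differed between the groups at an adjusted p under 0.05 (limma, Benjamini-Hochberg over 19292 genes). The smallest adjusted p among them was 0.480, and 0 of 10 had an unadjusted p under 0.05. Over all tested genes 5 passed the adjusted threshold, 0.0259% of the total (0.0104% higher and 0.0156% lower), and 13.6% had an unadjusted p under 0.05. The median log2 fold change of the 10 was -0.12, knockout minus control on the log2(TPM + 1) scale, against -0.022 for all tested genes. It was 0.053 without knockout mouse 1. Groups did not overlap for 3 of the 10, with Jag1 higher and Notch3 and Dll1 lower in all 3 libraries labelled knockout. Over all tested genes 33.9% did not overlap, 11.9% being higher and 21.9% lower, so the share among the Notch genes was near that background.

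**Figure D1:**
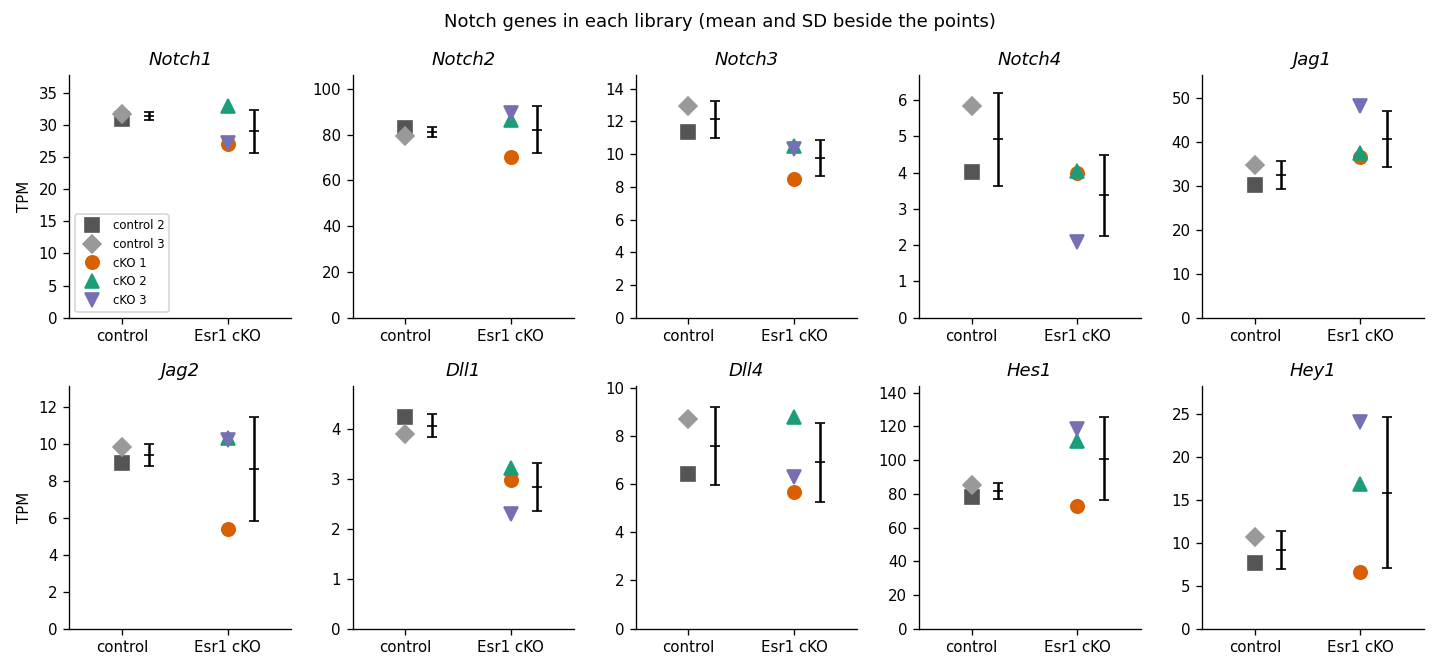
Each panel plots the TPM of 1 Notch gene in the 2 control and 3 Esr1 conditional knockout (cKO) libraries, with the mean and SD of each group beside the points. Jag1 lies above both controls in all 3 knockout libraries, Notch3 and Dll1 lie below, and Hes1 and Hey1 are above the controls in mice 2 and 3 and below them in mouse 1.

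Among the receptors, Notch2 was the most abundant and Notch4 the least in each of the 5 libraries, with Notch1 and then Notch3 between them. Notch2 measured 82.7 and 79.5 TPM in the controls against 70.3, 86.4 and 89.4 TPM in the knockouts. Its values in knockout mice 2 and 3 lay above both controls and that of mouse 1 below them, and the log2 fold change was 0.0082 with a 95% interval of -0.40 to 0.41 (limma, adjusted p 0.984). That value changed sign under quantile normalization (-0.14) and when Rpph1 and Rn45s, a pair of abundant non-coding RNAs, were left out (-0.052). Notch1 measured 30.9 and 31.8 TPM in the controls against 27.0, 32.9 and 27.2 TPM in the knockouts. Its groups overlapped, with a log2 fold change of -0.11 and an interval of -0.52 to 0.30 (limma, adjusted p 0.768).

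Notch3, a receptor of mural cells, measured 11.3 and 12.9 TPM in the controls against 8.49, 10.5 and 10.3 TPM in the knockouts. All 3 knockout libraries lay below both controls, but the nearest values, 10.5 and 11.3 TPM, were closer than the controls were to each other, and the log2 fold change was -0.29 ± 0.20 (standard error, limma, adjusted p 0.529). The 6 pericyte markers summed to 125 and 131 TPM in the controls against 88.0, 117 and 116 TPM in the knockouts. All 6 lay below both controls in mouse 1 and 3 of 6 in each of mice 2 and 3, while Abcc9, at 51.4 TPM in mouse 3, and Cspg4, at 9.16 TPM in mouse 2, lay above both. The 7 smooth muscle markers summed to 628 and 426 TPM in the controls against 523, 471 and 460 TPM in the knockouts. The part of these cells in the Notch3 values was not tested. In bulk RNA, fewer cells of a type and less RNA per cell cannot be told apart.

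Notch4, which is largely endothelial, measured 4.0 and 5.82 TPM in the controls against 3.98, 4.04 and 2.09 TPM in the knockouts. Mice 1 and 2 were close to control mouse 2 and only mouse 3 was clearly lower, with a log2 fold change of -0.45 and an interval of -1.21 to 0.30 (limma, adjusted p 0.529). The log2 fold change was -0.22 without knockout mouse 3, -0.23 without control mouse 3 and -0.68 without control mouse 2. The 10 endothelial markers summed to 274 and 303 TPM in the controls against 221, 318 and 200 TPM in the knockouts. The lowest sum was thus in mouse 3, where 9 of 10 endothelial markers lay below both controls. In mouse 1, 6 of 10 lay below both, and in mouse 2, 6 of 10 lay above both. Notch4 was nonetheless alike in these mice, at 3.98 and 4.04 TPM. The part of endothelial cells in the Notch4 values was not tested.

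The shares of Notch2 and Notch1 in receptor RNA varied little. Notch2 made up 62.7% ± 2.11 (SD, n = 2) of the summed receptor TPM in controls and 66.0% ± 2.88 (SD, n = 3) in the libraries labelled knockout, and Notch1 made up 24.2% ± 0.32 and 23.4% ± 2.01. Notch3 held 8.78% and 9.93% in the controls and 7.73%, 7.83% and 8.0% in knockout mice 1, 2 and 3. These groups did not overlap, although the lower control lay closer to the knockouts than to the other control. Notch4 varied more for its size, with 3.10% and 4.48% in the controls and 3.62%, 3.02% and 1.62% in knockout mice 1, 2 and 3.

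**Figure D2:**
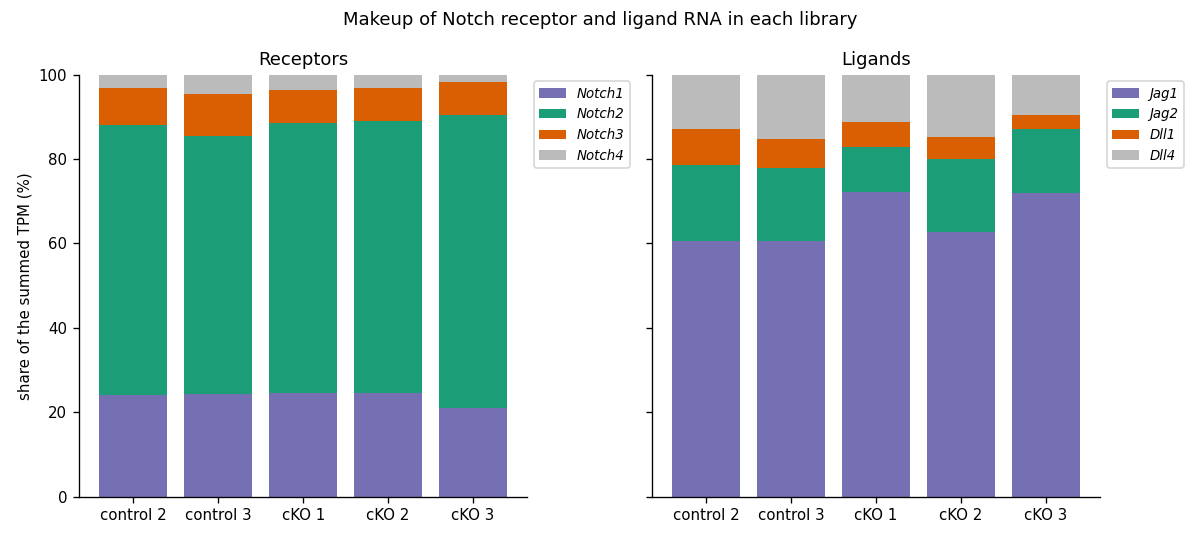
Stacked bars give the share, in percent of the summed TPM, of each receptor (left) and each ligand (right) in each library. Notch2 takes 61.2% to 69.3% of receptor RNA and Jag1 60.6% to 72.2% of ligand RNA.

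Jag1 was the most abundant ligand in every library. It measured 30.2 and 34.7 TPM in the controls against 36.6, 37.4 and 48.0 TPM in the knockouts. Mouse 3 was highest, and the other knockout libraries exceeded control mouse 3 by less than the controls differed from each other. The mean was 1.26-fold that of the controls, and the log2 fold change was 0.31 ± 0.19 (standard error, limma, adjusted p 0.484). Jag1 kept this direction in all 14 alternative settings, from 0.19, without knockout mouse 3, to 0.41. As a share of the 4 ligands it was 60.6% and 60.7% in the controls and 72.2%, 62.6% and 71.9% in knockout mice 1, 2 and 3.

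Dll1 showed the opposite pattern at a level near the bottom of the group. It measured 4.23 and 3.89 TPM in the controls against 2.97, 3.21 and 2.29 TPM in the knockouts. All 3 knockout values lay under both controls, the mean was 0.70 of that of the controls, and the log2 fold change was -0.41 (standard error 0.25, limma, adjusted p 0.480). The number of reads behind values this low is unknown, since TPM keeps no depth. Without 1 library at a time the log2 fold change ran from -0.48 to -0.31, and under quantile normalization it was -0.13.

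Jag1 and Dll1 are the ligands whose groups did not overlap, and their promoters are shown for that reason. The letters are those of the 250 bases before the RefSeq transcription start (for Dll1 the outer of its listed starts) that lie outside the GENCODE gene, from the RefSeq table for GRCm38.p6, written 5′ to 3′ on the gene's own minus strand. Jag1 spans chr2:137081456-137116644 and its stretch is chr2:137116645-137116770. Dll1 spans chr17:15367354-15376872 and its stretch is chr17:15376933-15377182.
Jag1: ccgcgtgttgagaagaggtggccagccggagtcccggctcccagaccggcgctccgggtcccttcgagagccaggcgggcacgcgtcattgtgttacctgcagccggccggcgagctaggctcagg
Dll1: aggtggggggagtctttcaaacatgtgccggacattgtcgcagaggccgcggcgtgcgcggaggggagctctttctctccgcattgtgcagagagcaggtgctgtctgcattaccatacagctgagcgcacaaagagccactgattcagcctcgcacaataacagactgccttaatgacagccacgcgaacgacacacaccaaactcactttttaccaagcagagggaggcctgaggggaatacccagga
The core of the RBPJ binding sequence, TGGGAA on either strand, was absent from both. It was in 0 of 9 windows of 250 bases found for 8 of the 10 Notch genes, and in 21.6% of all 32851 such windows in the table. Entries for Hes1 and Hey1 were missing. The absence says only that these letters are not in these windows.

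Jag2, the other Serrate-type ligand, measured 8.99 and 9.84 TPM in the controls against 5.42, 10.3 and 10.2 TPM in the knockouts. Knockout mouse 1 was far below the other 4 libraries and mice 2 and 3 were slightly above the controls. The log2 fold change was -0.16 with an interval of -0.87 to 0.56 (limma, adjusted p 0.817), and it was 0.12 without knockout mouse 1. Dll4, the endothelial tip-cell ligand, measured 6.42 and 8.72 TPM in the controls against 5.67, 8.77 and 6.30 TPM in the knockouts, so that the groups overlapped. Its log2 fold change was -0.12 with an interval of -0.74 to 0.50 (limma, adjusted p 0.837). Its highest knockout value was in mouse 2, the library with the highest sum of endothelial markers. In knockout mice 1 and 3 the order differed, as Dll4 was lower in mouse 1 and the endothelial sum was higher there (221 against 200 TPM). The part of endothelial cells in the Dll4 values was not tested.

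The targets Hes1 and Hey1 separated the knockout mice from one another more than they separated the groups. Hes1, a repressor that many signals besides Notch also induce, measured 78.3 and 85.1 TPM in the controls against 72.8, 111 and 119 TPM in the knockouts. It was the most abundant of the 10 genes on average, and exceeded Notch2 in 4 of 5 libraries. Knockout mice 2 and 3 were at 1.36 and 1.45 times the control mean and mouse 1 at 0.89 times. The log2 fold change was 0.27 (limma, standard error 0.24, adjusted p 0.602).

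Hey1, a repressor of the same helix-loop-helix class, measured 7.60 and 10.7 TPM in the controls against 6.61, 16.9 and 24.1 TPM in the knockouts. Mouse 3 was 2.63 times and mouse 2 1.84 times the control mean, while mouse 1 was the lowest of all 5 libraries. The log2 fold change of 0.59 had an interval of -0.56 to 1.73 (limma, adjusted p 0.582), the widest among the 10. It was 0.46 without knockout mouse 2 and 0.22 without mouse 3. The log2 fold change of Hes1 was 0.18 without knockout mouse 2 and 0.14 without mouse 3. Without knockout mouse 1 that of Hey1 was 1.08 with an interval of 0.47 to 1.68, and that of Hes1 was 0.49 with an interval of 0.20 to 0.77. Neither passed there either, at adjusted p of 0.0536 for Hey1 and 0.0579 for Hes1 (limma), in a fit where 7.98% of 19106 genes passed. That fit leaves out the only knockout library with Esr1 below the controls.

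**Figure D3:**
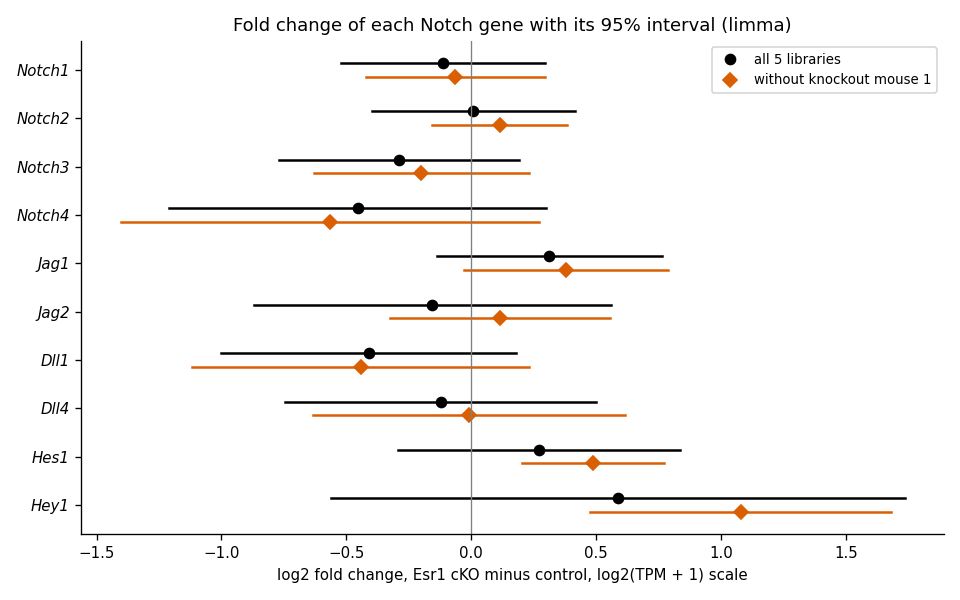
Points are log2 fold changes of each Notch gene, knockout minus control on the log2(TPM + 1) scale, and lines are 95% intervals, from all 5 libraries (black) and without knockout mouse 1 (orange). All intervals from 5 libraries include 0, and without mouse 1 only those of Hes1 and Hey1 lie above it.

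Epithelial markers other than Cldn4 had the same order as Hey1 between knockout mice. Notch2, Jag1, Hes1, Ccnd1 and Dtx4 had this order too, and the share of all genes with it was not computed. The 10 epithelial markers, of which the secretory cell gene Ovgp1 was the most abundant, summed to 2977 and 3264 TPM in the controls against 2100, 11944 and 13085 TPM in the knockouts. In mice 2 and 3, 9 of 10 lay above both controls, and in mouse 1, 7 lay below both. From knockout mouse 1 to mouse 3, Hey1 differed 3.64-fold and Hes1 1.63-fold. Of the epithelial markers, Epcam differed 3.08-fold, Cdh1 2.59-fold, Krt8 2.12-fold, Pax8 3.74-fold and Ovgp1 7.40-fold. Cldn4 went the other way, at 17.5, 16.0 and 9.47 TPM in knockout mice 1, 2 and 3. Esr1 itself had the same order, lowest in knockout mouse 1 and highest in mouse 3. The 8 ciliated cell markers summed to 330 and 389 TPM in the controls against 311, 559 and 460 TPM in the knockouts. Of the 8, 6 in mouse 2 and 5 in mouse 3 lay above both controls. Mcidas and Ccno, which act early in the formation of multiciliated cells, lay below both controls in all 3 knockouts. That is 2 of 8, and 21.9% of all tested genes did so. Both were low. Mcidas measured 1.98 and 2.19 TPM in the controls against 0.94, 1.36 and 0.86 TPM in the knockouts. Ccno measured 5.06 and 7.26 TPM in the controls against 2.64, 3.19 and 3.35 TPM in the knockouts. Tubb4b was the most abundant of the 8 in every library. The part of epithelial cells in the Hes1 and Hey1 values was not tested.

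Dissociation-induced genes, among them Fos, Egr1 and Hspa1b, were lower in mice 2 and 3. Their 10 members summed to 11999 and 12997 TPM in the controls against 12339, 7762 and 6333 TPM in the knockouts, and all 10 lay below both controls in mice 2 and 3. Hes1 was highest in the libraries where these genes were lowest, and the part of dissociation in its values was not tested. The 8 immune markers summed to 1983 and 2560 TPM in the controls against 1503, 980 and 688 TPM in the knockouts, a sum of which Lyz2 made up most. Of the 8, 7 lay below both controls in mice 1 and 2 and 8 in mouse 3, while Cd3e was above both in mice 1 and 2. Thus 7 of 8 lay below both controls in all 3 knockouts, against 21.9% of all tested genes. Of the 8, 0 passed the adjusted threshold (limma), and 5 were lower at an unadjusted p under 0.05. Over all tested genes 9.87% were lower at that level. The part of immune cells in the values of the Notch genes was not tested.

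The wider pathway was examined in 47 further genes grouped by role, all of which were tested. None passed the adjusted threshold (limma, smallest adjusted p 0.0858), and 6 had an unadjusted p under 0.05, 5 of them with higher and 1 with lower values under the knockout label. Over all tested genes, 3.70% were higher and 9.87% lower at that level. Groups did not overlap for 14 of the 47 with higher and 10 with lower values under the knockout label. Over all tested genes these shares were 11.9% and 21.9%. The median log2 fold change of the 47 was 0.085. Without knockout mouse 1, 5 of them passed the adjusted threshold, namely Dlk1, Dtx4, Hey2 and Ccnd1, which were higher, and Myc, which was lower. There 5.35% of all tested genes were called higher and 2.63% lower, and neither remaining knockout library had Esr1 below the controls.

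Beyond Hes1 and Hey1, the other targets on the list were divided. Hey2, the closest relative of Hey1, measured 8.36 and 8.57 TPM in the controls against 10.7, 28.6 and 40.1 TPM in the knockouts. All 3 knockout libraries were above both controls, mice 2 and 3 by far the most, and the log2 fold change of 1.36 had a standard error of 0.49 (limma, unadjusted p 0.0288, adjusted p 0.329). Without knockout mouse 1 it was 1.88 (adjusted p 0.0140). Heyl, the third Hey gene, measured 5.50 and 9.98 TPM in the controls against 10.9, 20.6 and 15.3 TPM in the knockouts. Its groups did not overlap either, with a log2 fold change of 0.93 (limma, unadjusted p 0.0280, adjusted p 0.327). The 3 Hey genes thus had their highest values in knockout mice 2 and 3, and in mouse 1 Hey1 alone lay below both controls.

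The Hey2 promoter is shown because Hey2 had the largest fold change among the targets. Its gene is at chr10:30832359-30842801 on the minus strand, and the stretch, chosen in the same way, is chr10:30842802-30843033 (RefSeq, GRCm38.p6), 5′ to 3′, with the RBPJ core on the opposite strand in capitals.
Hey2: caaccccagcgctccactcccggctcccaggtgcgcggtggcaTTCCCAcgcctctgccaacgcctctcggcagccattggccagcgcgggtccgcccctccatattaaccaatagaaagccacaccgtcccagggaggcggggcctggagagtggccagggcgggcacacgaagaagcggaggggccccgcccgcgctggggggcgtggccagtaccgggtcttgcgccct
The match begins 207 bases before the RefSeq start and is part of the longer form GTGGGAA, which is in 5.42% of all windows. A match of letters is a description of the sequence and not evidence that the factor binds there.

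Other targets went in both directions. Ccnd1, the cyclin D1 gene, measured 42.8 and 46.7 TPM in the controls against 50.3, 73.3 and 76.7 TPM in the knockouts (log2 fold change 0.55, limma, unadjusted p 0.0429, adjusted p 0.355). Myc, a growth-promoting transcription factor, measured 133 and 151 TPM in the controls against 103, 90.4 and 64.6 TPM in the knockouts (log2 fold change -0.74, limma, unadjusted p 0.0140, adjusted p 0.267). Neither overlapped between groups, and both respond to many pathways other than Notch. The targets Hes2, Hes5, Hes7 and Nrarp had log2 fold changes of -0.63, -0.48, -0.45 and -0.40, and Hes6 one of 0.20. Of these only Nrarp, an inhibitor of Notch that Notch induces, and Hes6 exceeded a mean of 5 TPM in both groups. Groups did not overlap for these genes either. Of the 9 other targets, 4 were higher and 5 lower in all 3 libraries labelled knockout. Over all tested genes 11.9% were higher and 21.9% lower in this way. For Nrarp the nearest values were close, 7.15 TPM in knockout mouse 3 and 7.29 TPM in control mouse 3.

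**Figure D4:**
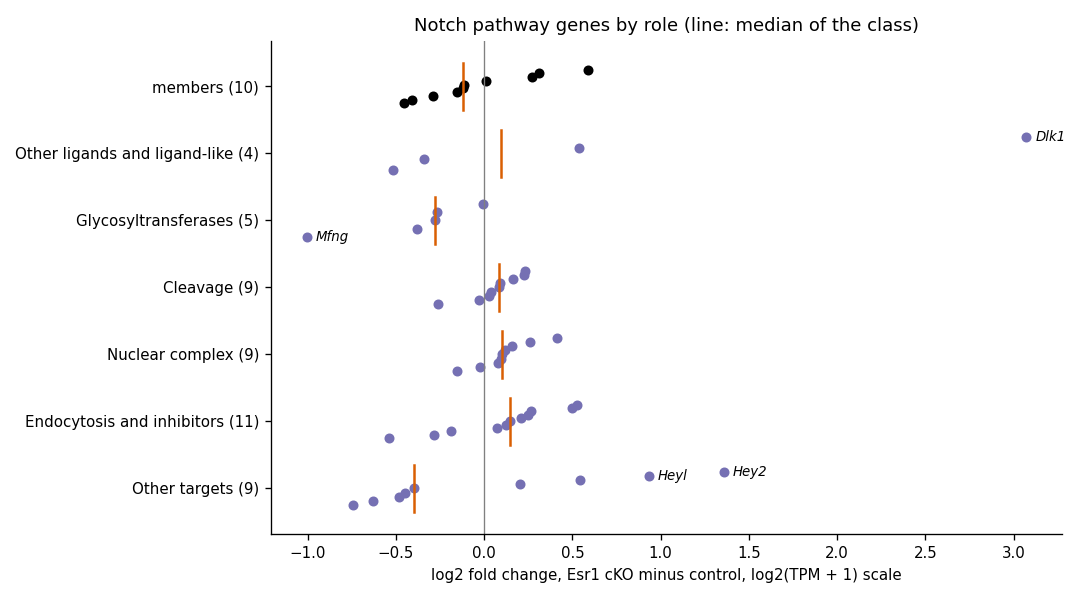
Each point is the log2 fold change of 1 gene, knockout minus control on the log2(TPM + 1) scale, for the 10 Notch genes and 6 further classes of pathway genes, with the class median as a line and the number of genes in brackets. Dlk1 lies far to the right at 3.07, Hey2 and Heyl lead the other targets, and none of the genes passes the adjusted threshold.

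Dlk1 had by far the largest fold change of the 47 genes. It encodes a Delta-like transmembrane protein that lacks the domain by which classical ligands bind Notch, and it is known for expression in immature mesenchymal cells. It measured 4.55 and 11.5 TPM in the controls against 64.2, 54.5 and 93.7 TPM in the knockouts. All 3 knockout libraries, mouse 1 included, were several times above both controls, and the mean was 8.83-fold higher. On the log2 scale this was 3.07 ± 0.38 (standard error, limma, unadjusted p 9.4e-05, adjusted p 0.0858). It was 3.12 without knockout mouse 1, with an adjusted p of 0.0206. The other ligand-like genes, Dll3, Dlk2 and Dner, were between 0.82 and 4.72 TPM in every library.

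None of the genes that modify or cleave the receptors had an unadjusted p under 0.05 with all 5 libraries. The 5 glycosyltransferase genes, whose enzymes add the sugars that tune ligand choice, had log2 fold changes from -1.0 to -0.0046. Mfng, the lowest of them, measured 7.78 and 10.1 TPM in the controls against 7.15, 4.13 and 1.85 TPM in the knockouts (limma, adjusted p 0.376). All 3 knockout libraries lay below both controls. Without knockout mouse 1 its log2 fold change was -1.37 with an interval of -2.21 to -0.53 (limma, adjusted p 0.0652). Without mouse 3, its lowest library, that of Mfng was -0.61 (limma, adjusted p 0.615). The 9 cleavage genes, among them Adam10 and the gamma-secretase subunits, ran from -0.26 to 0.23. The 9 genes of the nuclear complex ran from -0.15 to 0.41, with 0 of 9 at an unadjusted p under 0.05. Rbpj itself measured 49.9 and 39.9 TPM in the controls against 49.9, 46.5 and 47.4 TPM in the knockouts, so that all 3 knockout libraries lay near or between the controls.

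Among the 11 genes of ligand endocytosis and pathway inhibition, 1 had an unadjusted p under 0.05. This was Dtx1, a Deltex ubiquitin ligase that Notch also induces, with 10.6 and 9.64 TPM in the controls against 13.4, 16.9 and 14.1 TPM in the knockouts (log2 fold change 0.50, limma, unadjusted p 0.0399, adjusted p 0.351). Its relative Dtx4 measured 29.9 and 26.9 TPM in the controls against 31.8, 42.8 and 51.5 TPM in the knockouts, again highest in mice 2 and 3, with a log2 fold change of 0.52 (limma, adjusted p 0.378).

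**Figure D5:**
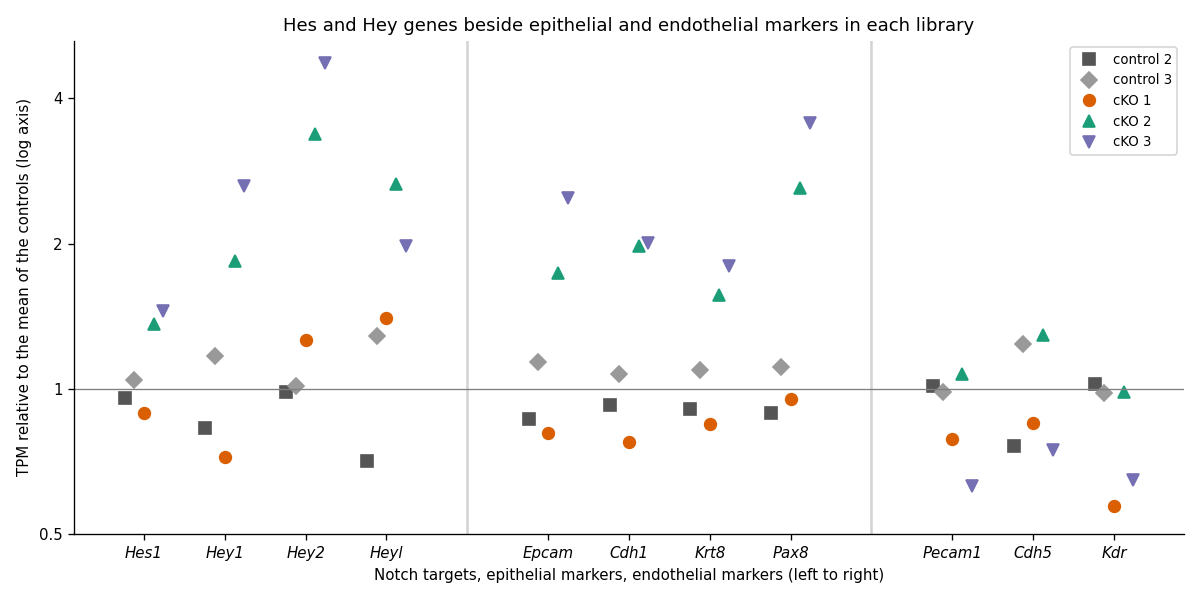
The vertical log axis gives TPM relative to the mean of the controls, for 4 Hes and Hey genes, 4 epithelial markers and 3 endothelial markers in each library. Hes1, Hey1, Hey2 and Heyl, like the epithelial markers, are highest in knockout mice 2 and 3, while the endothelial markers of mouse 3 are low.

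By level, averaged over the 5 libraries, the 10 genes ran from Hes1 (93.2 TPM) and Notch2 (81.7 TPM) through Jag1 (37.4 TPM) and Notch1 (29.9 TPM) to Hey1 (13.2 TPM), Notch3 (10.7 TPM), Jag2 (8.96 TPM) and Dll4 (7.18 TPM), with Notch4 (3.99 TPM) and Dll1 (3.32 TPM) last. Notch2 exceeded Jag1, Notch1 exceeded Hey1, Notch3 exceeded Jag2 and Dll4 exceeded Notch4 in 5 of 5 libraries. The neighbours Hes1 and Notch2, Jag1 and Notch1, and Jag2 and Dll4 kept their order in 4 of 5, Notch4 and Dll1 in 3 of 5, and Hey1 and Notch3 in 2 of 5. The ranges of these 5 pairs overlapped.

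The genes most like Jag1 and Dll1, the Notch genes with the smallest p in each direction, were found by the root mean square difference of mean-centred log2(TPM + 1) over the 5 libraries. Nearest to Jag1 among 12161 genes were Srp14 (0.020), Cfap20 (0.027) and Slc6a6 (0.031). Nearest to Dll1 were Rcan1 (0.019), Rrp12 (0.034) and Pisd-ps1 (0.038). Rcan1, the closest of these, measured 31.6 and 30.2 TPM in the controls against 23.9, 25.9 and 20.3 TPM in the knockouts.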

How the data were processed

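The deposited table gives 1 TPM value per gene and library, made by the authors. Its title names the aligner STAR, and the submitters' processing notes name the build mm10. The aligner version, counter, annotation and filters are not given in the sources used here, and no depth can be had from TPM. The labels gave the groups and mouse numbers. Values were converted to log2(TPM + 1), and the 19292 genes with at least 1 TPM in at least 2 libraries were fitted with limma 3.58.1 in R 4.3.3 (eBayes with trend), genotype being the only term. Tests were two-sided, p-values were adjusted by Benjamini-Hochberg with a threshold of 0.05, and the fit was tested on simulated data. Fold changes on this scale understate changes of low genes. With 2 against 3 libraries an exact permutation test could not go below 0.1 and was not used.

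All 10 Notch genes are named, with pathway genes at an unadjusted p under 0.05. Dtx4, Mfng, Rbpj, the Hes genes and Nrarp were named after their values were seen. The members and lists were chosen with earlier results of these data known. Rpph1, a non-coding RNA, took 13.1% to 22.3% of TPM. Positions are from GENCODE M21 for GRCm38. Alternatives covered pseudocount, filters, scalings, variance model, weighting of libraries, mouse number as block and omission of each library.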

Additional observations from a re-analysis of the deposited data

How the results depend on the processing

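The count of Notch genes past the threshold was 0 in all alternatives but 1. With the mouse number as a replicate block it was 1, Hey1, with a log2 fold change of 1.08 and an adjusted p of 0.0245 (limma). That fit rests on mice 2 and 3 because mouse 1 has no partner, and the labels give only a shared number. Deviations from the group means correlated at -0.06 and -0.07 across genes for mice 2 and 3. With 2 controls the control deviations mirror each other, so these values cannot show whether the mice were paired. The block also gave 6 other pathway genes, 1858 of all genes, a median of 0.053, Jag2 at 0.12 and Esr1 at 0.57. Library weights gave 2 other pathway genes, 656 of all genes, a median of 0.033, Jag2 at 0.026, Dll4 at 0.039 and Esr1 at 0.15. Without knockout mouse 1, other pathway genes numbered 5 and all genes 1524, with a median of 0.053, Jag2 at 0.12 and Esr1 at 0.57. Leaving out 1 library at a time, the median ran from -0.24 to 0.053, Notch2 from -0.057 to 0.11, Jag2 from -0.29 to 0.12, Dll4 from -0.32 to 0.072, other pathway genes from 0 to 5, all genes from 0 to 1524 and Esr1 from -0.68 to 0.57. Notch2 was -0.14 with quantile normalization, -0.052 without Rpph1 and Rn45s, -0.020 without control mouse 3, -0.033 without knockout mouse 2 and -0.057 without mouse 3, and Dll4 was 0.072 without control mouse 3. The count over all genes, 5, fell to 0 at a pseudocount of 0.1, where 2233 had an unadjusted p under 0.05, and to 0 among genes averaging 5 TPM or more, where 1389 had, 3 with no filter, and 2 with median-of-ratios scaling and with eBayes without trend. For the 10 genes, 127 of 138 alternative values had an unchanged sign and call, 10 changed sign and 1 came to pass. A fit without a control mouse assumes that the lone control varies like the knockouts. Notch4 and Dll1 averaged under 5 TPM and have no value in that setting. Apart from the mice left out, the cause was not tested. Read depth is unknown, so no counting error can be given for low genes such as Dll1 and Notch4.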
